A study of Mus musculus with 10 samples.

Results

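The genes described here encode the enzymes of mitochondrial fatty acid oxidation, with the acyl-CoA synthetases that activate fatty acids before it. They were taken by symbol from a list of 33 genes, and all 33 were present among the 54532 genes of the deposited count table. The list holds 7 acyl-CoA synthetases, 5 carnitine acyltransferases, 8 acyl-CoA dehydrogenases, 5 enzymes of the hydratase, hydroxyacyl-CoA dehydrogenase and thiolase steps, 3 auxiliary enzymes for unsaturated chains, 3 electron transfer flavoprotein genes and 2 acyl-CoA thioesterases.

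The series asked how dimethyl malonate (DMM), an ester whose product malonate inhibits succinate dehydrogenase, alters gene expression in the obstructed mouse kidney. RNA from whole kidneys was sequenced, with 1 library per mouse, 5 mice given DMM and 5 given PBS as the control. All were wild-type male C57BL/6 mice whose left ureter was ligated at 8 weeks of age (unilateral ureteral obstruction, UUO), and they were sacrificed 14 days later. Dosing with DMM followed the ligation, at 40 mg/kg on alternate days by the intraperitoneal route. Both groups were therefore obstructed, and kidneys without obstruction were not among the samples.

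The total counts of control replicates 1 to 5 were 18078777, 16457495, 17825223, 18068465 and 16508788. Those of DMM replicates 1 to 5 were 15797882, 15722527, 17806034, 19475833 and 16794390. At these depths, 32 of the 33 genes were counted often enough to be tested in both sets of libraries described next, and Cpt1b, the muscle form of carnitine palmitoyltransferase, was not, with 0 to 7 counts per library.

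Libraries stood apart in several ways. In the group means that the authors deposited, the weights of control replicate 3 and DMM replicate 1 were 0, so every comparison was made over all 10 libraries and over the other 8 libraries, 4 of each group. The 8 libraries are part of the 10, and the fits are not independent of each other. DMM replicate 1 resembled the controls in a list of 10 interferon-response genes, whose mean log2 value against the control mean was −0.08 there and between −3.43 and −2.90 in the other DMM libraries. DMM replicate 4 had 20029 detected genes against 22898 to 24083 in the rest, and a TMM scaling factor of 0.852 against 0.981 to 1.05. Counts in DMM replicate 4 also leaned towards genes of low GC content and long transcripts. Spearman's rho between GC content and the log2 ratio to the mean of the 4 controls was −0.48 across 16491 genes, and 0.42 for transcript length. In the other 9 libraries these coefficients were between −0.12 and 0.12. Genes of a library share its depth and composition and are not independent replicates.

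Fatty acids enter the mitochondrion as carnitine esters. An acyl-CoA synthetase first joins the fatty acid to coenzyme A, carnitine palmitoyltransferase 1 on the outer membrane passes the acyl group to carnitine, and CPT2 on the inner membrane returns it to coenzyme A. Inside, repeated rounds of dehydrogenation, hydration, a further dehydrogenation and thiolysis shorten the chain, and electrons from the first step pass through the electron transfer flavoproteins to ubiquinone. Proximal tubule cells rely on this pathway for much of their ATP, and malonyl-CoA, a different compound from malonate, inhibits carnitine palmitoyltransferase 1.

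Levels of different genes were compared as FPKM, which divides counts by gene length and library size. In control kidneys, the mean FPKM ± SD (n = 5) was highest for Acadl, at 102 ± 5.96, followed by Cpt1a at 69.0 ± 9.93 and Etfa at 59.4 ± 14.6. Acadm (43.6 ± 23.7), Acot13 (41.8 ± 12.8), Acaa2 (41.4 ± 8.46) and Eci1 (40.1 ± 6.64) came next, and these neighbouring FPKM levels differed by less than their SDs. Acadl, a dehydrogenase for long chains, thus had the highest level by the deposited gene lengths, above that of 98.1% of tested genes. The order of the next genes depended on the length used. With the length of the longest transcript in place of the deposited one, levels were 107 ± 6.24 for Acadl, 83.4 ± 45.2 for Acadm, 78.3 ± 19.3 for Etfa and 68.7 ± 9.89 for Cpt1a (SD, n = 5), and Acadl and Acadm then differed by less than the SD of Acadm. The lowest FPKM levels were those of Acad12 (2.99 ± 0.977), Cpt1c (1.56 ± 0.216), Acsl6 (0.0829 ± 0.0344) and Cpt1b (0.0446 ± 0.0413). In all, 23 of the 33 genes were above 10 FPKM and 2 were below 1. By control FPKM, the median rank of the 32 tested genes was at the 77.7th percentile of all tested genes.

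**Figure D1:**
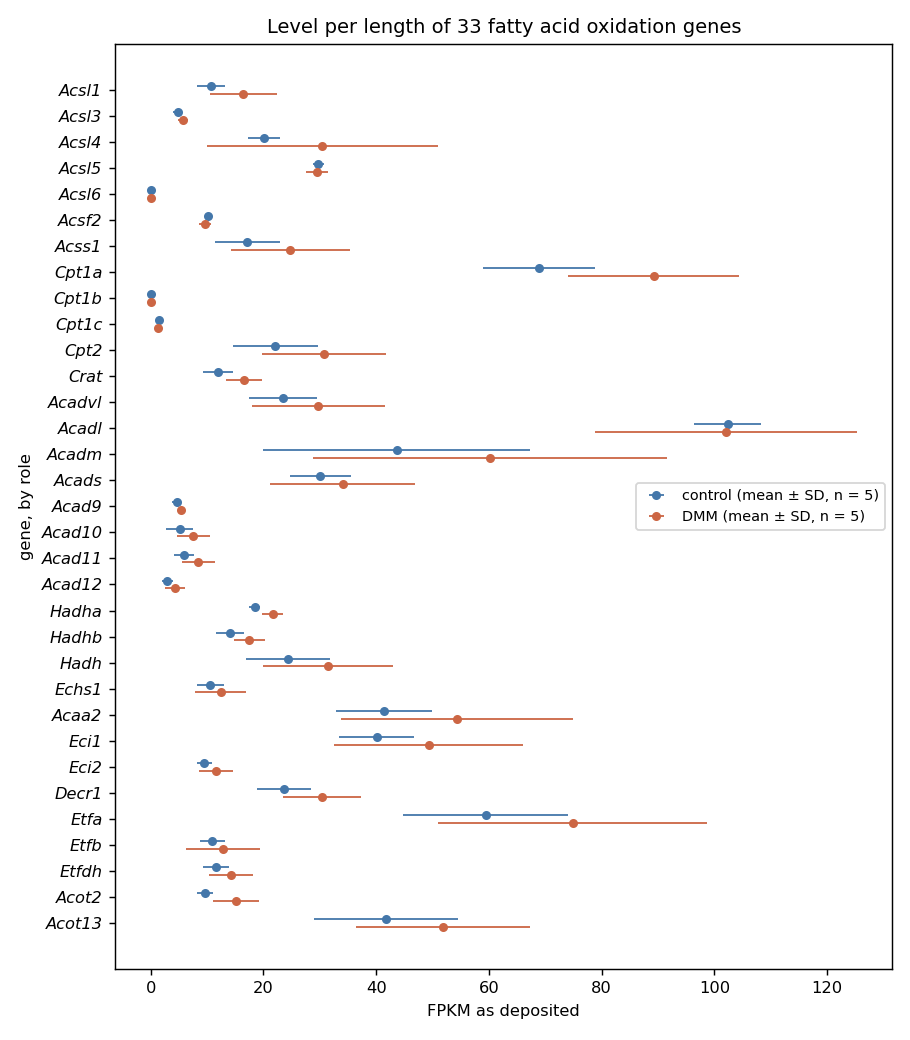
Mean FPKM ± SD over 5 control and 5 DMM kidneys for the 33 genes, ordered by role, on a linear axis. By the deposited gene lengths, Acadl and Cpt1a had the highest levels, and Acsl6 and Cpt1b were close to 0.

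Within families, 1 or a few forms made up most of the FPKM. Among the carnitine palmitoyltransferase 1 genes, Cpt1a, the liver and kidney form, held 97.7% ± 0.591 (SD, n = 5) of the FPKM in controls and 98.5% ± 0.528 (SD, n = 5) in DMM kidneys. Cpt1c, the form best known from brain, held 2.26% ± 0.522 (SD, n = 5) and 1.47% ± 0.541 (SD, n = 5). Among the long-chain synthetases, Acsl5 held 45.4% ± 1.09 (SD, n = 5) of the FPKM in controls, Acsl4 30.8% ± 3.80 and Acsl1 16.3% ± 3.38. In DMM kidneys these shares were 37.4% ± 8.37, 34.7% ± 12.5 and 20.6% ± 7.80 (SD, n = 5). The wide SDs of the DMM group reflect uneven libraries: in DMM replicate 4, Acsl4 held 57.0%, Acsl5 25.9% and Acsl1 11.8%, while in DMM replicate 3 Acsl1 held 29.2%. With the length of the longest transcript, the shares in controls were 42.7% for Acsl5, 25.9% for Acsl4 and 24.6% for Acsl1, so that Acsl4 and Acsl1 differed by less than their spread between mice, and Cpt1a held 96.1%.

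Of the 32 tested genes, 7 rose with DMM over the 8 libraries, and 0 passed the test over all 10. The 8 libraries leave out control replicate 3 and DMM replicate 1, whose mean log2 values over these genes were 0.42 and −0.08. These were the highest control and the lowest DMM value, so leaving them out widens the difference between the groups. In the 8 libraries, log2 fold changes of DMM over control (log2FC) were positive for 28 genes and negative for 4, with a median of 0.55 against 0.02 for all 16550 tested genes. Acsl1, Cpt1a, Cpt2, Crat, Acad10, Hadhb and Acot2 rose by edgeR's quasi-likelihood test at a Benjamini-Hochberg adjusted p under 0.05. That made 7 of 32, against 3.17% of all tested genes (525) that rose. At an unadjusted p under 0.05, 21 of 32 were higher, against 10.8% of all tested genes. For lower transcripts the count was 0 of 32 by edgeR, against 4% of all tested genes (662), with 0 by DESeq2 and 0 at an unadjusted p under 0.05, against 10.8% of all tested genes. In 11 genes every one of the 4 DMM values was above every one of the 4 control values, namely Acsl1, Acsl3, Cpt1a, Crat, Acad9, Acad10, Acad11, Hadha, Hadhb, Decr1 and Acot2, and the same held for 9.45% of all tested genes. Counts scaled by library total alone shifted the median of all genes from 0.02 to −0.09. Calls across all genes were then 323 higher and 776 lower, and 2 of the 32 genes rose.

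Over all 10 libraries, 27 of the 32 log2FC values were positive and 5 negative, with a median of 0.32 against 0.02 for all 16505 tested genes. None passed the test: edgeR called 0 of 32 higher, against 0% of all tested genes, and 0 lower, against 0%, and DESeq2 called 0 in each direction (14 and 36 of all tested genes). At an unadjusted p under 0.05, Acsl1, Cpt1a, Crat, Hadha and Acot2 were higher, 5 of 32 against 4.4% of all tested genes, and 0 were lower, against 6.49%. The number of genes whose DMM values all exceeded the control values was 0 of 32, against 0.794% of all tested genes. The smallest adjusted p among the 32 genes was 0.378, that of Acot2, and no tested gene had a smaller one.

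The calls leaned on single libraries. Over the 8 libraries, the 7 calls became 0 without control replicate 1, control replicate 4, DMM replicate 3 or DMM replicate 5, 1 without control replicate 2 (Crat) and 1 without control replicate 5 (Acot2). Without DMM replicate 2, Acsl1, Cpt1a, Crat and Acad10 were among those that still passed, while Cpt2 and Hadhb did not. Without single libraries, log2FC was 0.76 to 1.02 for Acsl1, 0.49 to 0.60 for Cpt1a and 0.66 to 0.99 for Cpt2. It was 0.63 to 0.78 for Crat, 0.89 to 1.20 for Acad10, 0.42 to 0.53 for Hadhb and 0.72 to 0.91 for Acot2. Without DMM replicate 4, 25 of the 32 genes rose, all but Acsl3, Acsl4, Acsl5, Acsl6, Acsf2, Cpt1c and Acadl, and the counts over all genes were 2407 higher and 2320 lower. Without any 1 of the 4 controls, or DMM replicate 3 or 5, those counts were 131 to 225 higher and 276 to 372 lower. Over all 10 libraries, Acot2 passed when DMM replicate 1 was left out (adjusted p = 0.0167 by edgeR), when 59 of all tested genes were higher and 458 lower, and the count among the 32 was 0 without any other library.

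**Figure D2:**
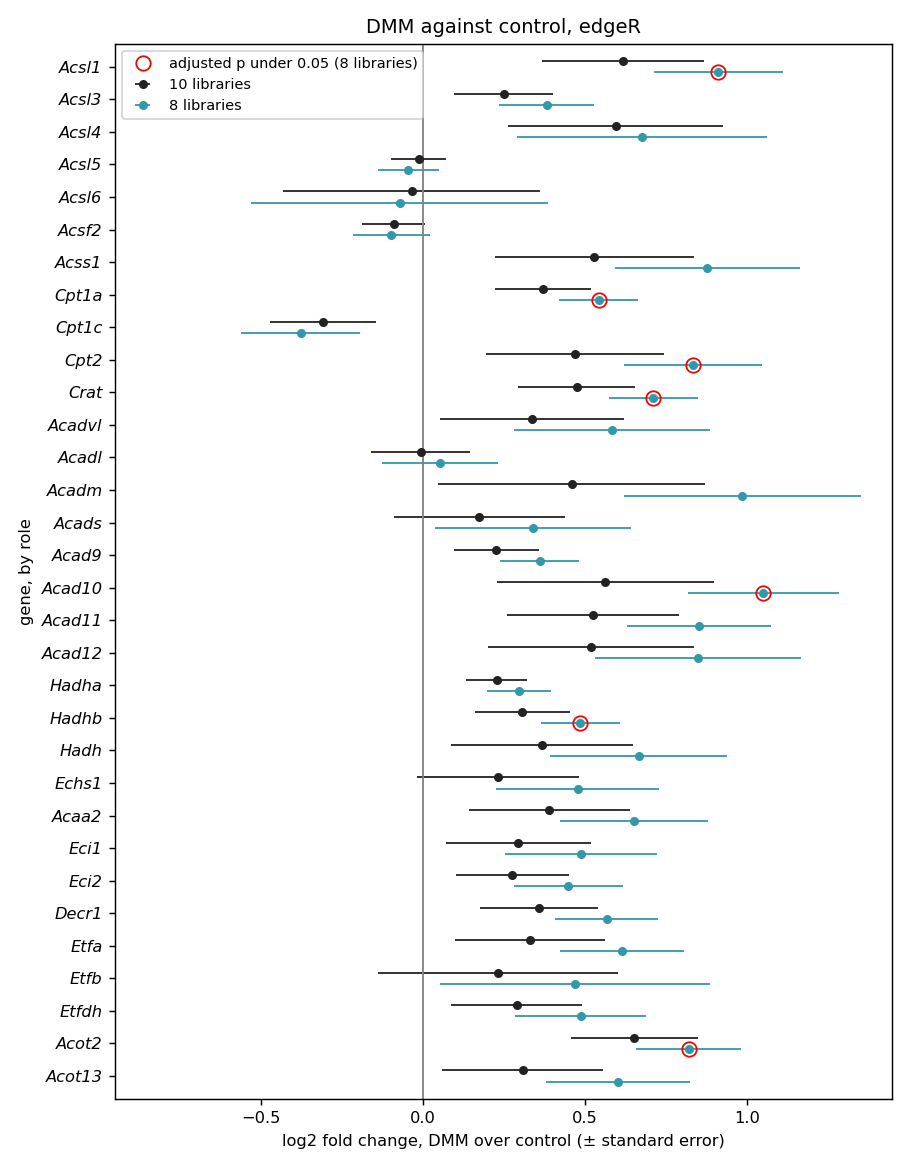
Log2FC of DMM over control ± SE from edgeR for the 32 tested genes, over 10 libraries (black) and over 8 libraries (blue), with circles around the 7 genes that rose over the 8 libraries. Most points lie to the right of 0. Cpt1c, Acsf2, Acsl5 and Acsl6 lie to its left in both sets, but Acsf2 crosses to the right (0.04 and 0.07) once GC content and transcript length are used as offsets, and the signs of Acsl5 (over 10 libraries) and Acsl6 turn under some settings.

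In some mice of both groups, most of the enzymes lay on the same side of the control mean. Against the mean of the 4 controls without replicate 3, 30 of the 32 genes were higher in control replicate 3 and 28 were lower in control replicate 4, while 21, 23 and 22 were higher in control replicates 1, 2 and 5. In DMM replicates 2, 3 and 5, 27, 30 and 29 were higher, and in DMM replicates 1 and 4 there were 16 higher and 16 lower. The mean of the 32 log2 values against the mean of the 5 controls was −0.04, −0.04, 0.42, −0.29 and −0.05 in control replicates 1 to 5. In DMM replicates 1 to 5 it was −0.08, 0.32, 0.57, −0.06 and 0.64. By this mean, control replicate 3 lay with the DMM libraries 2, 3 and 5, DMM replicates 1 and 4 lay with the controls, and control replicate 4 was the lowest. In DMM replicate 5, 27 of the 32 genes exceeded all 5 controls, against 26.5% of all tested genes, and in DMM replicate 3 the count was 24, against 26.6%. DMM replicate 2 had 5 such genes (19.5% of all tested genes), and 26 when only the 4 controls without replicate 3 were considered (30%). DMM replicate 1 had 1 (13.7%), and 3 genes below all 5 controls, against 13.6% of all tested genes.

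DMM replicate 4 was uneven across the 32 genes. Its log2 values against the mean of the 5 controls were highest for Acsl4 (1.75), Acot2 (1.03) and Crat (0.70), and lowest for Etfb (−1.51), Acads (−0.97) and Acadvl (−0.74). Of the 32 genes, 7 were above all 5 controls in this library and 10 below, against 36.5% and 41.3% of all tested genes. Across the 32 genes, Spearman's rho between transcript length and the log2 ratio to the 4 controls was 0.60 in this library, and −0.43 for GC content. In DMM replicate 1 the rho with length was 0.51 across the 32 genes and 0.06 across 16491 genes. The part of base composition and length in the values of DMM replicate 4 was not tested.

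**Figure D3:**
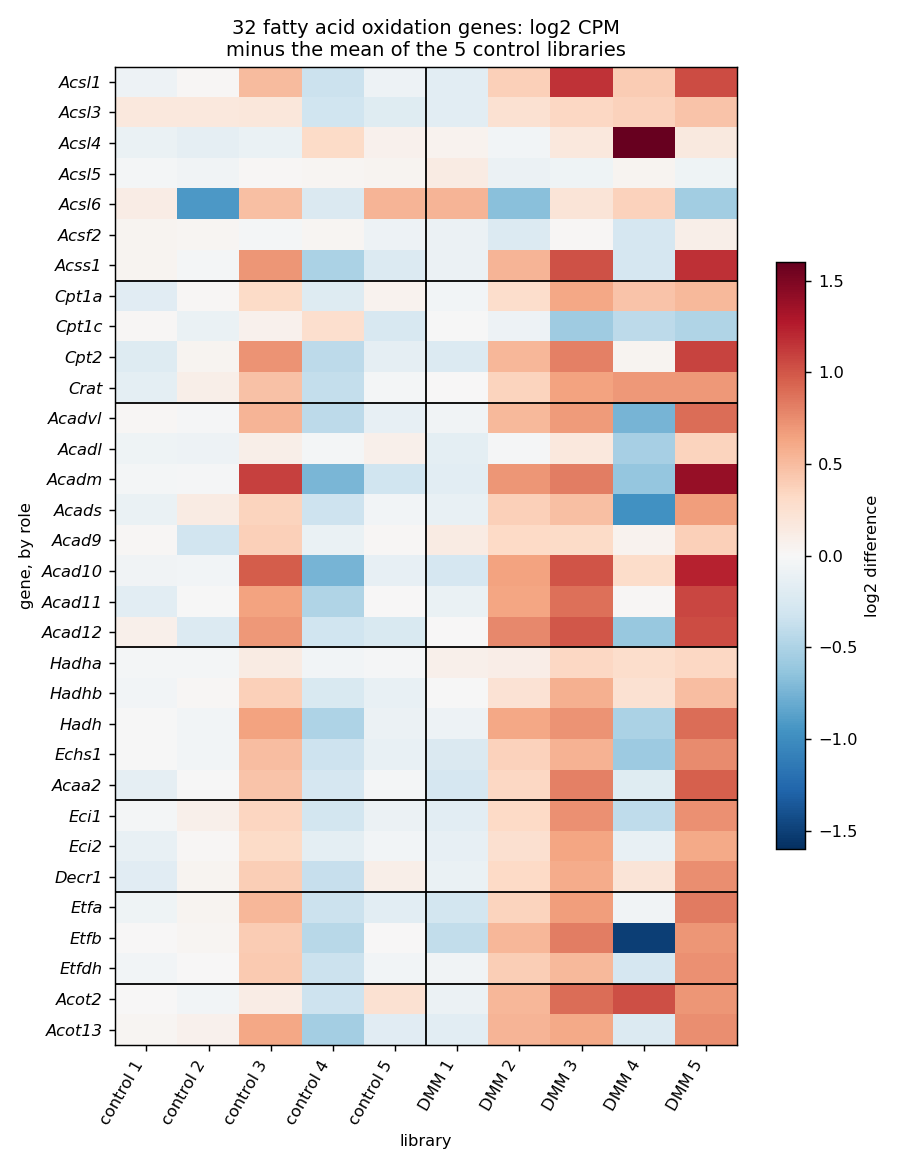
Log2 CPM of the 32 tested genes in each library, relative to the mean of the 5 controls, with genes ordered by role and libraries by group. Control replicate 3 and DMM replicates 2, 3 and 5 are high in most genes, control replicate 4 is low, and DMM replicate 4 is high in some genes and low in others.

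Acyl-CoA synthetases came first in the pathway, and 1 of the 7, Acsl1, rose over the 8 libraries. Acsl1 (ENSMUSG00000018796, chr8:46471037-46536051, mm10) encodes a major long-chain synthetase of oxidative tissues. Its normalized read counts (CPM, counts scaled by effective library size) were 104, 112, 157, 87.0 and 104 in control replicates 1 to 5 and 98.7, 144, 247, 147 and 228 in DMM replicates 1 to 5. DMM replicates 3 and 5 were highest, DMM replicate 1 was within the control range, and the groups overlapped over all 10 libraries but not over the 8. Mean CPM was 102 ± 10.5 (SD, n = 4) in control and 192 ± 53.9 (SD, n = 4) in DMM kidneys over the 8 libraries, a log2FC of 0.91 (standard error, SE, 0.20, adjusted p = 0.0292 by edgeR). Over all 10 libraries the means were 113 ± 26.3 and 173 ± 62.5 CPM (SD, n = 5), with a log2FC of 0.62 (SE 0.25, adjusted p = 0.420 by edgeR). Its call over the 8 libraries was lost without control replicate 1, 2, 4 or 5 or DMM replicate 3 or 5, with adjusted p between 0.0740 and 0.104. It was also lost with GC content and transcript length as offsets (0.0606) and with total counts alone (0.0605).

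Other synthetases were less even. Acsl4, which prefers arachidonate, was at 98.5 to 134 CPM in controls and at 106 to 122 CPM in 4 DMM libraries, but at 367 CPM in DMM replicate 4. Its log2FC over all 10 libraries was 0.60, and 0.08 without that library. With GC content and transcript length as offsets, the log2FC of Acsl4 was 0.36 over 10 libraries. Over the 8 it was 0.68, and 0.39 with the offsets. Acss1, the mitochondrial synthetase for acetate, had log2FC values of 0.53 over 10 and 0.88 over 8 libraries, and Acsl3 had 0.25 and 0.38, without passing the test in either set, though Acss1 did over the 8 without DMM replicate 4 (adjusted p = 0.00162), by DESeq2 (0.0372) and with GC content and transcript length as offsets (0.0316). Acsl5 and Acsl6 were near 0, at −0.01 and −0.04 over 10 libraries, and their signs turned under some settings. Acsf2, a synthetase for medium chains, was at −0.09 and −0.10, and became positive, at 0.04 and 0.07, with GC content and transcript length as offsets.

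Carnitine acyltransferases transfer acyl groups between coenzyme A and carnitine, and 3 of the 4 tested genes, Cpt1a, Cpt2 and Crat, rose over the 8 libraries. Cpt1a (ENSMUSG00000024900, chr19:3323301-3385732) had CPM of 262, 299.8, 365, 258 and 309 in control replicates 1 to 5 and of 286, 359, 455, 406 and 426 in DMM replicates 1 to 5. Control replicate 3 reached the DMM values and DMM replicate 1 the control values, whereas the 8 other libraries separated by group. Mean CPM over the 8 libraries was 282 ± 25.8 (SD, n = 4) in control and 411 ± 40.2 (SD, n = 4) in DMM kidneys, with a log2FC of 0.54 (SE 0.12, adjusted p = 0.0317 by edgeR). Over all 10, the means were 299 ± 43.2 and 386 ± 65.8 CPM (SD, n = 5), with a log2FC of 0.37 (SE 0.15, adjusted p = 0.419 by edgeR). Without control replicate 1, 2, 4 or 5 or DMM replicate 3 or 5, the adjusted p over the remaining 7 of the 8 libraries was between 0.0821 and 0.113. It was 0.0746 with total counts alone and 0.0723 when every gene with at least 1 count was tested.

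Cpt2 (ENSMUSG00000028607, chr4:107903981-107923610), the inner membrane enzyme, was at 44.5, 53.0, 84.4, 38.5 and 46.2 CPM in control replicates 1 to 5 and at 44.1, 73.9, 89.7, 52.9 and 109 CPM in DMM replicates 1 to 5. DMM replicate 5 was highest and control replicate 3 came next after DMM replicate 3, and DMM replicate 4 was just under control replicate 2, so the groups overlapped over the 8 libraries as well. The mean over the 8 libraries was 45.6 ± 5.97 CPM (SD, n = 4) in control and 81.3 ± 23.6 CPM (SD, n = 4) in DMM kidneys. Its log2FC was 0.83 (SE 0.21, adjusted p = 0.0491 by edgeR) over 8 and 0.47 (SE 0.27, adjusted p = 0.534 by edgeR) over 10 libraries. The call was lost without any 1 of the 8 libraries except DMM replicate 4, with adjusted p between 0.0770 and 0.158, and also with total counts alone (0.107) and when every gene with at least 1 count was tested (0.0603).

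Crat (ENSMUSG00000026853, chr2:30400471-30415813) encodes carnitine acetyltransferase, whose substrates are short acyl groups such as acetyl. CPM of Crat were 57.3, 67.9, 88.4, 48.8 and 62.1 in control replicates 1 to 5 and 63.9, 81.1, 99.0, 103 and 103 in DMM replicates 1 to 5. Control replicate 3 was above DMM replicates 1 and 2, and over the 8 libraries the groups did not overlap. Over the 8 libraries, the mean was 59.0 ± 8.07 CPM (SD, n = 4) in control and 96.7 ± 10.6 CPM (SD, n = 4) in DMM kidneys, and the log2FC was 0.71 (SE 0.14, adjusted p = 0.0178 by edgeR), the smallest adjusted p of the 32 genes. Over 10 libraries it was 0.47 (SE 0.18, adjusted p = 0.403 by edgeR). Without control replicate 1, 4 or 5 or DMM replicate 3 or 5, the adjusted p over the 8 libraries became 0.0549 to 0.0618.

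Cpt1c went the other way without passing the test. Its log2FC was −0.31 (SE 0.16, adjusted p = 0.513 by edgeR) over 10 and −0.38 (SE 0.18, adjusted p = 0.282 by edgeR) over 8 libraries. With GC content and transcript length as offsets, the log2FC of Cpt1c was −0.16 and −0.17. Mean CPM was 8.84 ± 1.22 (SD, n = 5) in control and 7.14 ± 1.28 (SD, n = 5) in DMM kidneys, with DMM replicates 3, 4 and 5 below every control.

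**Figure D4:**
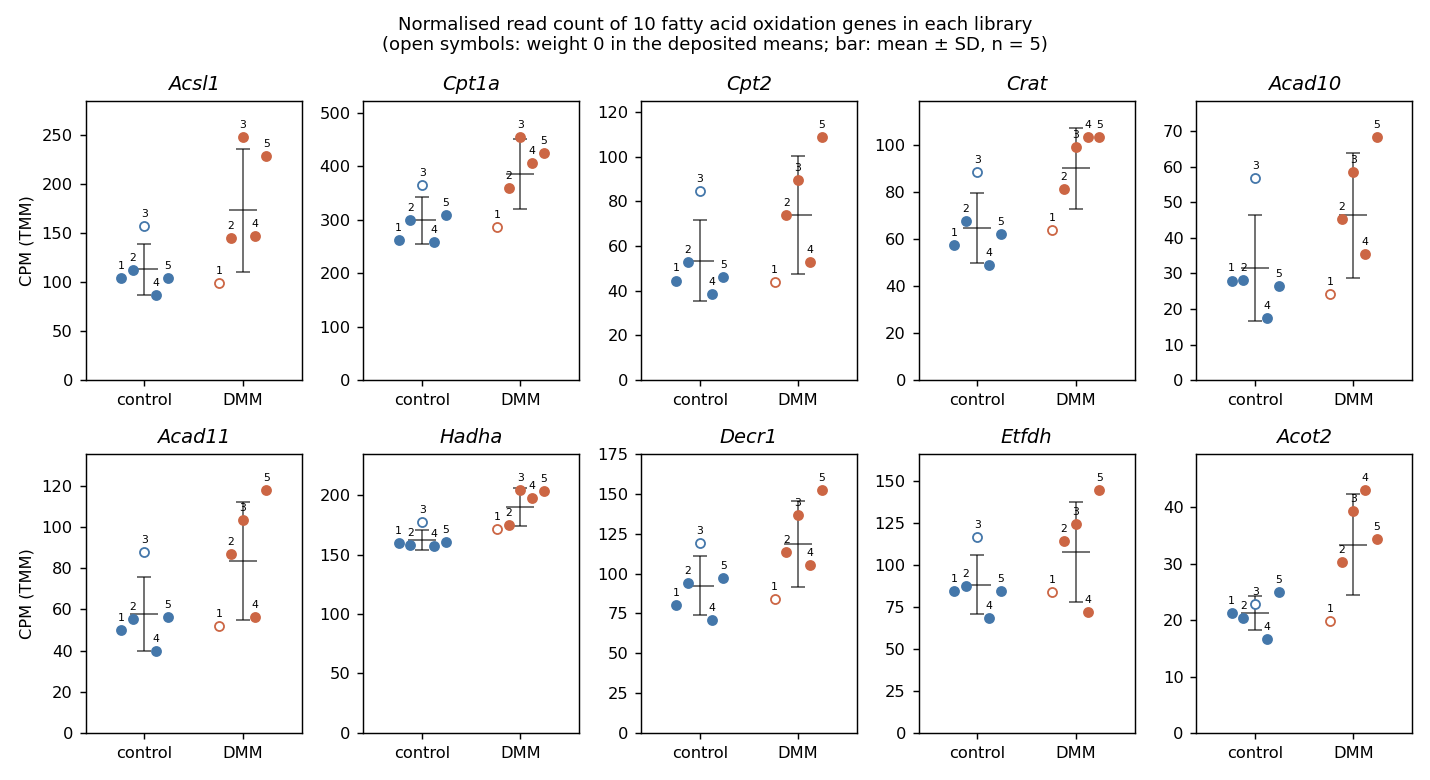
CPM of Acsl1, Cpt1a, Cpt2, Crat, Acad10, Acad11, Hadha, Decr1, Etfdh and Acot2, with each point 1 library numbered by replicate and bars for group means. Control replicate 3 lies above the other controls in 9 of the 10 panels, and DMM replicate 1 lies among the controls in most.

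The acyl-CoA dehydrogenases named after chain length catalyse the first step of each round. Among the 8 listed genes of the family, Acad10 alone rose over the 8 libraries. Acad10 (ENSMUSG00000029456, chr5:121621026-121660514) was at 28.0, 28.3, 56.9, 17.3 and 26.6 CPM in control replicates 1 to 5 and at 24.2, 45.4, 58.5, 35.5 and 68.3 CPM in DMM replicates 1 to 5. Control replicate 3 was about as high as DMM replicate 3, DMM replicate 1 was within the control range, and the remaining libraries separated by group. Its mean over the 8 libraries was 25.0 ± 5.19 CPM (SD, n = 4) in control and 51.9 ± 14.4 CPM (SD, n = 4) in DMM kidneys, with a log2FC of 1.05 (SE 0.23, adjusted p = 0.0301 by edgeR). Over all 10 libraries, its log2FC was 0.56 (SE 0.33, adjusted p = 0.536 by edgeR). Without control replicate 1, 2, 4 or 5 or DMM replicate 3 or 5, the adjusted p over the 8 libraries was 0.0705 to 0.0940, and with total counts alone it was 0.0607.

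Acad11 (ENSMUSG00000090150, chr9:104063377-104127725), a related dehydrogenase, had CPM of 49.99, 55.6, 87.9, 39.95 and 56.5 in control replicates 1 to 5 and of 52.1, 87.1, 103, 56.5 and 118 in DMM replicates 1 to 5. DMM replicates 3 and 5 were highest, and DMM replicate 4 was level with the highest of the 4 other controls once control replicate 3 was set aside. The log2FC was 0.53 (SE 0.26, adjusted p = 0.497 by edgeR) over 10 libraries and 0.85 (SE 0.22, adjusted p = 0.0528 by edgeR) over 8, with means of 58.0 ± 18.0 and 83.4 ± 28.8 CPM (SD, n = 5) over 10. Acad11 passed over the 8 libraries without DMM replicate 4 (adjusted p = 0.001004), with RLE size factors (0.0494) and by DESeq2 (0.00870).

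The dehydrogenases named after chain length did not pass in either set. Acadm, for medium chains, varied most between mice, with CPM of 153, 154, 334, 94.0 and 126 in control replicates 1 to 5 and of 139, 254, 277, 101 and 412 in DMM replicates 1 to 5. Control replicate 3 was second only to DMM replicate 5, while DMM replicate 4 was second lowest, and the log2FC was 0.46 over 10 libraries and 0.99 (SE 0.37) over 8. Acadl, the most abundant of the 33 by FPKM, had log2FC values of −0.01 and 0.05, with signs that turned under some settings, and CPM of 196 to 221 in controls against 143 to 265 in DMM kidneys. For Acadvl, of very long chains, they were 0.34 and 0.58, for Acads, of short chains, 0.17 and 0.34, for Acad9, which also acts in complex I assembly, 0.23 and 0.36, and for Acad12 0.52 and 0.85. Without DMM replicate 4, 5 of these 6 genes rose over the 8 libraries, with adjusted p of 0.00145 for Acadvl, 0.00239 for Acadm, 0.00456 for Acads, 0.00621 for Acad9 and 0.000330 for Acad12, and Acadl did not (0.127 by edgeR). With all 8 libraries and those offsets, Acadvl (0.0366), Acads (0.0317) and Acad12 (0.0442) passed as well.

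The remaining steps of the round are carried out in part by the mitochondrial trifunctional protein, whose subunits are encoded by Hadha and Hadhb. Hadha (ENSMUSG00000025745, chr5:30118304-30155162) was at 159, 158, 177, 157 and 160.3 CPM in control replicates 1 to 5 and at 171, 175, 204, 197 and 203 CPM in DMM replicates 1 to 5. Controls 1, 2, 4 and 5 lay within a few CPM of each other and below every DMM library, and control replicate 3 was above DMM replicates 1 and 2. Over 10 libraries the means were 162 ± 8.34 CPM and 190.2 ± 15.996 CPM (SD, n = 5). The log2FC was 0.23 (SE 0.09, adjusted p = 0.428 by edgeR) over 10 and 0.30 (SE 0.10, adjusted p = 0.115 by edgeR) over 8 libraries, and without DMM replicate 4 the adjusted p over the 8 was 0.0120. Hadha also passed over the 8 by DESeq2 (0.0367) and with GC content and transcript length as offsets (0.0182).

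Hadhb (ENSMUSG00000059447, chr5:30155248-30184593) rose over the 8 libraries, from 87.0 ± 6.85 to 122 ± 15.0 CPM (SD, n = 4), with a log2FC of 0.49 (SE 0.12, adjusted p = 0.0473 by edgeR). Over 10 libraries it was 0.31 (SE 0.15, adjusted p = 0.480 by edgeR), and over 8 the adjusted p was 0.212 with GC content and transcript length as offsets, 0.1497 with total counts alone and 0.119 when every gene with at least 1 count was tested. The call was lost without any 1 of the 8 libraries except DMM replicate 4, with adjusted p between 0.0582 and 0.157. The other genes of these steps, Hadh, Echs1 and Acaa2, had log2FC values of 0.37, 0.23 and 0.39 over 10 and of 0.67, 0.48 and 0.65 over 8 libraries and did not pass, though over the 8 without DMM replicate 4 their adjusted p was 0.00110, 0.00180 and 0.00236, and with the offsets that of Acaa2 was 0.00476.

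Unsaturated chains need auxiliary enzymes, of which Decr1, a dienoyl-CoA reductase, had the smallest p. Decr1 (ENSMUSG00000028223, chr4:15917240-15945507) was at 80.6, 94.2, 119, 70.8 and 97.5 CPM in control replicates 1 to 5 and at 84.3, 114, 137, 105 and 153 CPM in DMM replicates 1 to 5. DMM replicates 3 and 5 exceeded every control, control replicate 3 exceeded the other DMM libraries, and the groups did not overlap over the 8 libraries. The log2FC was 0.36 (SE 0.18, adjusted p = 0.497 by edgeR) over 10 and 0.57 (SE 0.16, adjusted p = 0.0661 by edgeR) over 8 libraries, with means of 92.5 ± 18.5 and 119 ± 26.8 CPM (SD, n = 5) over 10. Its adjusted p was 0.00594 over the 8 libraries without DMM replicate 4, and 0.0370 with GC content and transcript length as offsets. The enoyl-CoA isomerase genes Eci1 and Eci2 had log2FC values of 0.30 and 0.28 over 10 libraries and of 0.49 and 0.45 over 8, with adjusted p of 0.00313 and 0.00247 once DMM replicate 4 was left out of the 8, and Eci1 passed with the offsets (0.00647). For these 3 genes, the count by edgeR over the 8 libraries was 0. At an unadjusted p under 0.05, 2 were higher, against 10.8% of all tested genes, and DESeq2 called 1, Decr1 (adjusted p = 0.0240).

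Electrons from the dehydrogenases pass to electron transfer flavoprotein, made of the products of Etfa and Etfb, and on to its ubiquinone oxidoreductase, the product of Etfdh. Etfdh (ENSMUSG00000027809, chr3:79603788-79629500) had CPM of 84.1, 87.5, 116, 68.3 and 84.3 in control replicates 1 to 5 and of 83.8, 114, 124, 71.8 and 144 in DMM replicates 1 to 5. DMM replicate 5 was highest, and DMM replicates 1 and 4 were among the controls, so the groups overlapped in both sets. The log2FC was 0.29 (SE 0.20, adjusted p = 0.578 by edgeR) over 10 and 0.49 (SE 0.20, adjusted p = 0.202 by edgeR) over 8 libraries, and over the 8 without DMM replicate 4 the adjusted p was 0.00227. Means over 10 libraries were 88.1 ± 17.5 CPM in control and 108 ± 29.6 CPM in DMM kidneys (SD, n = 5). Etfa had log2FC values of 0.33 and 0.61, and Etfb had 0.23 and 0.47. Etfb was at 9.20 to 16.6 CPM in controls and at 9.51, 18.2, 22.3, 4.35 and 20.7 CPM in DMM replicates 1 to 5, with its lowest value in DMM replicate 4. Once that library was left out of the 8, the adjusted p was 0.00233 for Etfa and 0.00357 for Etfb. Across the 8 libraries, edgeR called 0 of these 3 genes, with 2 higher at an unadjusted p under 0.05, against 10.8% of all tested genes. DESeq2 called 1, Etfa (adjusted p = 0.0464), which also passed with the offsets (0.0182).

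Acyl-CoA thioesterases return acyl-CoA to free fatty acid. Acot2 (ENSMUSG00000021226, chr12:83987861-83993873), the mitochondrial matrix form, was at 21.2, 20.4, 22.9, 16.7 and 24.9 CPM in control replicates 1 to 5 and at 19.8, 30.4, 39.4, 43.1 and 34.4 CPM in DMM replicates 1 to 5. DMM replicates 2 to 5 were above every control, control replicate 3 was not high for this gene, and only DMM replicate 1 was among the controls. Mean CPM over the 8 libraries was 20.8 ± 3.38 (SD, n = 4) in control and 36.8 ± 5.57 (SD, n = 4) in DMM kidneys, a log2FC of 0.82 (SE 0.16, adjusted p = 0.0200 by edgeR). Over 10 libraries the log2FC was 0.65 (SE 0.20, adjusted p = 0.378 by edgeR), and 0.79 without DMM replicate 1 (adjusted p = 0.0167). Its call over the 8 libraries was lost without control replicate 1, 2 or 4 or DMM replicate 3 or 5, with adjusted p of 0.0526 to 0.0679. Acot13 had log2FC values of 0.31 and 0.60 and did not pass, with an adjusted p of 0.00350 over the 8 without DMM replicate 4 and of 0.0101 with the offsets.

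Acot2 lies among close relatives on chromosome 12, and reads of such genes can be hard to assign. Its neighbour Acot1, which encodes a cytosolic thioesterase, was at 33.2, 39.4, 50.3, 25.2 and 37.4 CPM in control replicates 1 to 5 and at 32.7, 58.7, 82.3, 11.8 and 89.2 CPM in DMM replicates 1 to 5. In DMM replicate 4, Acot1 thus had its lowest value while Acot2 had its highest. The sum of Acot1 and Acot2 was 41.9 to 73.2 CPM in controls and 52.5, 89.1, 122, 54.9 and 124 CPM in DMM replicates 1 to 5, which left DMM replicate 4 within the control range.

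Positions on the genome set further limits. Because the strand setting of the counting is not given, it is not known whether reads of overlapping genes on opposite strands were told apart. By the deposited start and end of each gene, 8 of the 32 genes overlap another in this way, and overlap of exons was not examined. They are Acsl5 with Zdhhc6, Acsf2 with Chad, Crat with Dolpp1, Acadvl with Dvl2, Acad11 with Ackr4, Echs1 with Paox, Eci2 with Gm16984 and Etfdh with 4930579G24Rik. Acsl3 overlaps Utp14b on the same strand. Acad10 and Acad12 are neighbours on chromosome 5, 2088 bases apart. Hadha and Hadhb, whose proteins form 1 complex, face away from each other, and their gene models as deposited start 86 bases apart, while their RefSeq starts have 272 bases between them.

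Promoters of 27 of the 33 genes were matched by symbol in RefSeq (GRCm38.p6, mm10), which gave 30 promoters among 32851, each 250 bases before to 50 bases after a start. Entries were missing for Cpt1b, Crat, Acad9, Acaa2, Decr1 and Acot13. The letters AGGTCA, the half-site read by many nuclear receptors, were present on either strand in 6 of the 30 promoters (20%), against 16.3% of all promoters. These belonged to Acadm, Acadvl, Acsl6, Cpt1a, Cpt1c and Echs1. The direct repeat AGGTCANAGGTCA was in 0 of the 30, against 0.0396% of all, and TCAAGGTCA, which contains the half-site, was in 1 (Acsl6), against 0.423%. GGGCGG, the GC box, was in 22 of the 30 (73.3%), against 35.7%, and CCAAT in 14 (46.7%), against 37.4%. CACGTG was in 0, against 7.15%, and TATAAA in 0, against 13.6%. A match is a description of letters in this window, and binding was not measured here.

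To show where the half-site lies, stretches around it are given for Cpt1a, Acadvl, Echs1 and Acadm, the 4 of these 6 genes above 10 FPKM in controls, with the motif or its reverse complement in capitals, read 5′ to 3′ on the strand of the gene. They lie at chr19:3323195-3323224 (plus strand), chr11:70015498-70015527, chr7:140116487-140116516 and chr3:153944875-153944893 (minus strand), and that of Echs1 is within Paox.
Cpt1a: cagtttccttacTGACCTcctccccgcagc
Acadvl: atggatcaccctAGGTCAggtagaatacag
Echs1: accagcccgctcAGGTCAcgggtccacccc
Acadm: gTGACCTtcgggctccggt

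The bases between the deposited models of Hadha and Hadhb (chr5:30155163-30155247, plus strand, 85 bases) are shown because the genes share this stretch. Its part in their values was not tested. Capitals mark the GC boxes, of which it holds 2.
Hadha and Hadhb: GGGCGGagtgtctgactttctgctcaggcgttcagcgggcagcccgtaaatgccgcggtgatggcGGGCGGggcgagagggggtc

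Genes around the pathway also had mostly positive fold changes, 52 of 58 in each set of libraries. Of 62 listed genes of fatty acid uptake, carnitine supply, malonyl-CoA control, nuclear receptors, ketone bodies, peroxisomal oxidation, propionyl-CoA, other dehydrogenases and other thioesterases, 58 were tested, and Fabp1, Bbox1, Acot10 and Them5 had too few counts. In the 8 libraries, 15 of 58 rose by edgeR, against 3.17% of all tested genes, and 0 fell, against 4%. At an unadjusted p under 0.05, 35 were higher and 1 lower, against 10.8% of all tested genes on each side. DESeq2 called 23 higher and 0 lower, GC content and transcript length as offsets gave 30 and 0, and total counts alone gave 12 and 0. The part on processing gives how many of all genes rose under these settings. The median log2FC was 0.54. Over 10 libraries, edgeR called 0 in either direction, with 13 higher and 0 lower at an unadjusted p under 0.05 (4.4% and 6.49% of all tested genes). DESeq2 called 0 in either direction, and the median was 0.31. The 15 calls became 46, with 3 lower, without DMM replicate 4, when more of all tested genes were also called in both directions, as given above. The 15 became 13 without DMM replicate 2, 9 without DMM replicate 3 or 5, 8 without control replicate 4 or 5, and 10 without control replicate 1 or 2. Over all 10 libraries, 1 gene, Prkaa2, passed when DMM replicate 1 was left out.

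On the supply side of the 33 enzymes, Slc22a5, the carnitine transporter, rose over the 8 libraries with a log2FC of 0.97 (SE 0.17, adjusted p = 0.0130 by edgeR), as did Aldh9a1, an enzyme of carnitine synthesis, with 1.01 (adjusted p = 0.0238). Cd36, which aids fatty acid uptake, had 0.84 (adjusted p = 0.0112), and Slc27a4 0.27 (adjusted p = 0.126). Prkaa2, a catalytic subunit of AMP-activated protein kinase, had 1.19 (adjusted p = 0.00555), while Acacb, which makes malonyl-CoA at the mitochondrion, had 0.42 (adjusted p = 0.229). Ppara, a receptor known to drive many genes of this pathway, had 1.73 (adjusted p = 0.0109), and its coactivator gene Ppargc1a 1.09 (adjusted p = 0.0450). Over all 10 libraries the log2FC values of Slc22a5, Aldh9a1, Cd36, Prkaa2, Ppara and Ppargc1a were 0.59, 0.57, 0.44, 0.89, 1.17 and 0.77, and none of these 6 passed. Cd36, Prkaa2 and Ppara kept an adjusted p under 0.05 when any 1 of the 8 libraries was left out, with highest values of 0.0474, 0.0282 and 0.0406. Slc22a5 did not without control replicate 4 or 5 (0.0531 and 0.0585), nor did Aldh9a1 or Ppargc1a without DMM replicate 3 or 5 or any 1 of the 4 controls (0.0579 to 0.140). Slc27a4 passed once DMM replicate 4 was left out (0.0131) and with GC content and transcript length as offsets (0.0294), and Aldh9a1 did not with total counts alone (0.0508).

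Among enzymes that use or extend the products, Oxct1, of ketone body use, rose over the 8 libraries with a log2FC of 0.97 (adjusted p = 0.0107). The peroxisomal genes Abcd3 and Acot4 rose, with 0.80 (adjusted p = 0.00839) and 1.26 (adjusted p = 0.00913). Mut rose by 0.92 (adjusted p = 0.0114) and Pccb had 0.60 (adjusted p = 0.258), both of propionyl-CoA breakdown. Acadsb and Sardh, dehydrogenases that also feed electron transfer flavoprotein, rose by 0.53 (adjusted p = 0.0477) and 0.94 (adjusted p = 0.0213). The thioesterase genes Acot9 and Them4 had 0.30 and 0.41 and did not pass. Oxct1, Abcd3, Acot4 and Mut kept an adjusted p under 0.05 when any 1 of the 8 libraries was left out, with highest values of 0.0499, 0.0346, 0.0394 and 0.0485. Acadsb lost its call without any library but DMM replicate 4 (0.0555 to 0.153), and Sardh without DMM replicate 3 or 5 or control replicate 4 or 5 (0.0655 to 0.0855). Acadsb also lost it with total counts alone (0.0812), when every gene with at least 1 count was tested (0.0773) and with the offsets (0.105). Without DMM replicate 4, Pccb, Acot9 and Them4 passed (0.00210, 0.0234 and 0.0247), and Pccb did with the offsets (0.0475). In the fit of all 10 libraries, the log2FC values of Oxct1, Abcd3, Acot4, Mut, Acadsb and Sardh were 0.51, 0.53, 0.86, 0.51, 0.33 and 0.54, with adjusted p of 0.528, 0.403, 0.388, 0.516, 0.497 and 0.501, and none of the 9 genes of this paragraph passed.

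Markers of some tubule cell types were high in the same libraries as the enzymes. In bulk tissue, fewer cells of a type and less RNA per cell cannot be told apart. The 12 proximal tubule markers, all tested, summed to 3668, 3636, 9708, 1298 and 2603 CPM in control replicates 1 to 5 and to 2702, 7582, 6327, 5378 and 9442 CPM in DMM replicates 1 to 5, with Kap the most abundant. Control replicate 3 and DMM replicates 2, 3 and 5, which were high for the 32 enzymes, were the highest here too, and control replicate 4 was lowest in both. All 12 had positive fold changes, with a median log2FC of 0.82 over 10 libraries and 1.70 over 8. Over the 8, 4 of the 12 rose by edgeR (11 without DMM replicate 4 and 2 without control replicate 5), with 10 at an unadjusted p under 0.05, 9 by DESeq2 and 10 with GC content and transcript length as offsets. For this list and those below, the shares of all tested genes over the 8 libraries were 3.17% higher and 4% lower by edgeR. At an unadjusted p under 0.05 they were 10.8% on each side. Counts of all genes called higher under other settings are given in the part on processing, as are those called lower by DESeq2. Those called lower with total counts alone are given above. Counts of all genes called lower with the offsets are not given here, so marker counts at that setting have no share beside them. The same holds where every gene with at least 1 count was tested. Over 10, edgeR called 0, with 2 at an unadjusted p under 0.05 and 0 by DESeq2. Of all tested genes over 10 libraries, 4.4% were higher and 6.49% lower at an unadjusted p under 0.05. The part of these cells in the values of the 32 enzymes was not tested.

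In the loop and distal tubule and collecting duct lists, control replicate 3 and DMM replicates 2, 3 and 5 were again the highest. Of 6 loop and distal tubule markers, 5 were tested and 3 rose over the 8 libraries (5 without DMM replicate 4, and 0 without control replicate 2, 4 or 5 or DMM replicate 3 or 5), Umod was the most abundant, and Pvalb had at most 10 counts in any library. Their sum was 3023, 2529, 4123, 1893 and 1640.5 CPM in controls and 2605, 4065, 4653, 1839 and 5018 CPM in DMM kidneys. Of 7 collecting duct markers, 2 rose (6 without DMM replicate 4, 0 without control replicate 4 or DMM replicate 3, and 1 without any other of the 8), and 3 by DESeq2 and 4 with the offsets, with Hsd11b2 the most abundant and sums of 341, 316, 529.5, 264 and 305 CPM in controls and 399.7, 437, 540.4, 269 and 477 CPM in DMM kidneys. With all 10 libraries, edgeR and DESeq2 called 0 markers of these 2 lists, with 0 and 2 at an unadjusted p under 0.05, and edgeR called 1 collecting duct marker without DMM replicate 1. The 6 injured tubule markers ran the other way in part, with sums of 2029, 2422, 1839, 2647 and 2697 CPM in controls and 2547, 2218, 2287, 2802 and 1966 CPM in DMM kidneys, and with Havcr1 the most abundant. Control replicate 3 and DMM replicate 5 were lowest for this list, and DMM replicate 4 was highest.

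Stromal and blood cell lists differed from the enzymes. The 7 fibroblast and myofibroblast markers, led by Col1a1, summed to 6548, 9657, 5181, 14212 and 9055 CPM in controls and to 11102, 5299.7, 3707, 7326 and 4225 CPM in DMM kidneys, lowest where the enzymes were highest. Over the 8 libraries all 7 had negative fold changes and 1 fell by edgeR, with 3 lower at an unadjusted p under 0.05, 3 by DESeq2 and 2 with total counts alone, against 4 without DMM replicate 4 and 0 without control replicate 2, 4 or 5 or DMM replicate 3 or 5. The 10 leukocyte markers, led by Lyz2, summed to 1339, 1499.7, 1142, 1185 and 1476 CPM in controls and to 1349.6, 986, 753, 739.8 and 765 CPM in DMM kidneys. All 10 had negative fold changes over the 8 libraries and 1 fell by edgeR, with 7 lower at an unadjusted p under 0.05, 6 by DESeq2, 4 with total counts alone and 3 with the offsets, against 5 without DMM replicate 4, 2 without DMM replicate 2 and 0 without control replicate 2, 4 or 5 or DMM replicate 3 or 5. When all 10 libraries were used, 2 fibroblast markers had positive and 5 negative fold changes, and all 10 leukocyte markers negative ones. Calls by edgeR and by DESeq2 were then 0 in both lists, with 0 and 5 lower at an unadjusted p under 0.05, and edgeR called 1 leukocyte marker lower without DMM replicate 1. Sums of the 5 podocyte markers (most abundant Podxl) were 602 to 768 and 601 to 929 CPM, and those of the 6 endothelial markers (most abundant Cdh5) 529 to 784 and 576 to 911 CPM. The 5 erythroid markers, led by Hbb-bs, summed to 136 to 230.1 CPM in controls and to 288, 216, 593, 788 and 276 CPM in DMM kidneys. For the injured tubule, podocyte, endothelial and erythroid lists, edgeR called 0 markers over the 8 libraries, while 0, 0, 0 and 5 had an unadjusted p under 0.05 and DESeq2 called 0, 0, 0 and 5. These 5 erythroid markers were higher in DMM kidneys. Of the erythroid list, edgeR called 3 higher when every gene with at least 1 count was tested, and 1 with the offsets. Without DMM replicate 4, edgeR called 1 injured tubule and 1 podocyte marker lower and 5 erythroid markers higher, and those 5 also without DMM replicate 2. From all 10 libraries edgeR called 0 in these 4 lists, with 0, 0, 0 and 5 at an unadjusted p under 0.05 and 0, 0, 0 and 1 by DESeq2.

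Fat and muscle are other tissues rich in these enzymes. Of 7 adipocyte markers 0 were tested, their sum was at most 6.53 CPM except for 28.5 CPM in control replicate 4, Adipoq was the most abundant, and Lep, Ucp1 and Cidea had at most 10 counts in any library. Of 6 striated muscle markers 1 was tested, and their sum was 1.40 to 3.32 CPM, with Myh4 at 0 in every library and Actn3 the most abundant. The share of counts on the mitochondrial genome was 2.14%, 2.30%, 3.66%, 1.97% and 2.0% in control replicates 1 to 5 and 2.30%, 3.79%, 4.03%, 5.62% and 4.39% in DMM replicates 1 to 5. Control replicate 3 and DMM replicates 2, 3 and 5 were high in this share as in the 32 enzymes, and DMM replicate 4 had the highest share, with enzymes above and below the controls. The part of these measures in the fold changes was not tested.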

How the data were processed

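RNA-seq of 10 UUO kidneys was analysed. The authors deposited a count of reads per gene for each library and FPKM values of the same libraries. Also deposited by the authors are mean values per group (a signal, the counts after division by size factors), used here only to find the 8 libraries. The log2 fold change, p and adjusted p of their own comparison were deposited too and were not used here. Gene length as deposited by the authors is in base pairs, of a source not given. The submitters' processing notes name HISAT2 2.0.5 and the mouse genome mm10, and the counting tool, annotation release and strand setting are not given in the sources used here. The labels name TRIzol for RNA extraction and the study's methods an RNA extraction kit. Molecular identifiers are not described, so that reads are not independent molecules.

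Genes were kept by edgeR's filterByExpr (16505 genes over 10 libraries, 16550 over 8), scaled with TMM factors and compared with the quasi-likelihood F test of edgeR with Benjamini-Hochberg adjustment over all tested genes, with a threshold of 0.05 (edgeR 4.0.16, R 4.3.3). Standard errors came from the log2 fold change and its F statistic, and log2 CPM used a prior count of 2. CPM with TMM served for comparisons between libraries and FPKM for comparisons between genes. The 8 libraries were found by writing the deposited group means as weighted sums of the deposited counts over 28001 genes. Total counts were 15722527 to 19475833 per library. The fits were tested on simulated counts with known changes. Genes of a simulated library shared no shift with GC content or length, unlike those of DMM replicate 4, so the test does not cover such shifts.

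Values in every library are given for Cpt1a, which the study measured by qPCR in TCMK-1 cells, not in these kidneys. They are also given for the gene of smallest p in each role over 10 libraries, and for genes that rose over the 8 libraries by more than 1.5-fold. For Acadm and Acot1, and for Etfb in the DMM libraries, they were added after seeing the data. Of the genes around the pathway, the 2 of smallest p in each sublist are named, except 1 gene that is not reported, though totals include it. The 33 genes and all lists were chosen with earlier results of these data known. Alternatives were DESeq2 1.42.0, RLE size factors, total counts alone, genes with at least 1 count, at least 10 counts in every library, a fold change above 1.5, an adjusted p under 0.1, each library left out, replicate number as a block and, added after seeing the data, offsets for GC content and transcript length (loess, span 0.3) and levels by the length of the longest transcript.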

Additional observations from a re-analysis of the deposited data

Results flagged for a closer look

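In each of 64 groups of 5 values (32 genes in 2 groups of mice), the gap between the most extreme library and its nearest neighbour was divided by the range of the group, and values above 0.71 were listed. Chance passes about 1 in 20 groups, and 4 of the 64 passed. For Acsl4, DMM replicate 4 gave 0.937, at 367 CPM against 106 to 122 CPM in the other DMM libraries. Control replicate 3 gave the other 3 values. For Hadha its value was 0.836, at 177 CPM against 157 to 160.3 CPM. For Acadm it was 0.749, at 334 CPM against 94.0 to 154 CPM. For Acad10 it was 0.724, at 56.9 CPM against 17.3 to 28.3 CPM. The causes were not tested.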

How the results depend on the processing

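Over all 10 libraries, the count of the 32 genes that rose was 0, and 0 by DESeq2, 0 to 1 when each library was left out in turn (1 without DMM replicate 1), and 7 over the 8 libraries. Across all tested genes, 0 rose and 0 fell. DESeq2 gave 14 and 36, leaving out libraries gave 0 to 59 and 0 to 458, and the 8 libraries gave 525 and 662.

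Over the 8 libraries, the 7 genes that rose became 12 with DESeq2, 2 with total counts alone, 4 when every gene with at least 1 count was tested, 15 with GC content and transcript length as offsets (chosen after seeing the data), and 0 to 25 when each library was left out. Across all tested genes, the 525 that rose became 978 with DESeq2, 323 with total counts alone, 1336 with the offsets, 876 at an adjusted p under 0.1 and 131 to 2407 without single libraries. The 662 that fell became 1084 with DESeq2, 1007 at an adjusted p under 0.1 and 276 to 2320 without single libraries. With the replicate number as a block (replicate block), the counts were 0 of the 32 genes, 0 higher and 0 lower. Whether replicate numbers pair the mice is not given in the sources used here. Correlations of control and DMM libraries of the same number were −0.06, 0.08, 0.34, 0.12 and −0.22. The highest with another number were 0.13, 0.03, 0.38, 0.38 and 0.30. So few values cannot decide whether the mice were paired. The median log2 fold change of the 32 genes, 0.55, was 0.46 to 0.68 without single libraries (0.68 without DMM replicate 4), and that over 10 libraries, 0.32, was 0.19 to 0.46.

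By CPM in place of FPKM, the share of Cpt1a in controls was 97.0%, that of Acsl1 28.8% in controls and 34.4% in DMM kidneys, and that of Acsl5 in controls 37.4%. CPM is not divided by length, which moves these shares. With the length of the longest transcript in place of the deposited length (chosen after seeing the data), shares in controls were 96.1% for Cpt1a, 24.6% for Acsl1, 25.9% for Acsl4 and 42.7% for Acsl5, and those in DMM kidneys 97.5% for Cpt1a and 30.1% for Acsl1. For Acsl1, Cpt1a, Cpt2, Crat, Acad10, Acad11, Hadha, Decr1, Etfdh and Acot2, 48 of the single results lost their call under an alternative, 17 gained one, 265 kept their side of the threshold, and 0 reversed. The cause of the other changes was not tested.

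Limits: 4 or 5 mice per group, 2 libraries with a weight of 0 for a reason not given in the sources used here, 1 library with another base composition, and values of transcripts in whole tissue, from which enzyme activity and fatty acid oxidation cannot be read. Genes with few counts, such as Cpt1b, could not be compared at this depth.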
